A study of Mus musculus with 198 samples.

Results

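Of 198 bisulfite libraries in the study, 19 came from cultured mouse neurons that received a DNMT3A construct carrying V665L (8 libraries) or Y735C (11 libraries), amino acid substitutions in the catalytic domain of the enzyme. Libraries belong here by their genotype label alone. All were cortical neurons of C57BL/6J mice isolated at E14.5, with male and female cells pooled, and held for 12.5 days in vitro. The reference groups, of the same source, strain and culture time, were 10 libraries labelled DNMT3a knockout, whose titles carry the word Cre, and 13 libraries labelled WT, which received the unaltered construct. The study is known for asking how far disease-associated DNMT3A proteins can methylate the genome of neurons that lack their own enzyme, and its cultures were picked for matched Dnmt3a messenger RNA in WT and altered constructs. A further 2 libraries of 12.5 days, whose titles and genotype labels contradict each other, entered no group. The labels do not say which libraries are separate cultures, so p-values measure only the spread between libraries, which may be partly technical. Sequencing was shallow, 0.01 to 0.03 times the genome by the labels, and since no cytosine counts accompany the values no counting error can be given.

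DNMT3A transfers methyl groups to cytosines that carry none. Its carboxy-terminal catalytic domain binds the methyl donor and the target cytosine and pairs with other DNMT3 molecules, whereas its PWWP and ADD domains read histone marks. In maturing neurons DNMT3A places most of the methylation outside CG sites, chiefly at CA, while CG methylation, which is laid down earlier and copied by DNMT1 at cell division, is already high. Methylation at CA sites is abbreviated mCA. CT sites take less methylation and CC sites least, and lambda phage DNA, added without methylation, gives the rate at which unmethylated cytosine is called methylated. Each value below is the percentage of cytosines of that kind called methylated in a library.

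Mean mCA was higher with either altered construct than in knockout, with no overlap for Y735C and with overlap for V665L. In the V665L cultures mCA was 0.499%, 0.533%, 0.553%, 0.572%, 0.812%, 0.884%, 1.33% and 1.45%, in increasing order. The lowest 4 lay within the knockout range and the highest 4 above it. In the Y735C cultures mCA ran from 0.680% through a median of 0.806% to 1.56%. All 11 lay above the highest knockout library. Most Y735C libraries lay between 0.680% and 0.978%, with 2 far above them at 1.46% and 1.56%. Knockout libraries ran from 0.407% through a median of 0.491% to 0.626%, a narrow spread. Libraries with the WT construct ran from 0.585% through a median of 1.12% to 1.55%, with 3 from 0.585% to 0.638% and the other 10 from 1.02% upward. Cultures labelled as no virus controls held 0.859% ± 0.225 (SD, n = 10), from 0.578% to 1.38%, and overlapped all these groups.

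**Figure D1:**
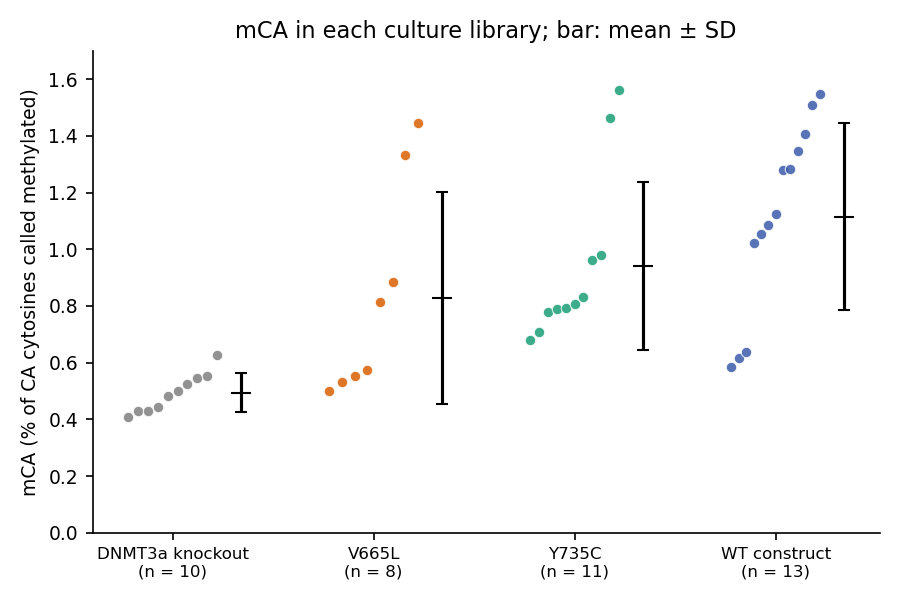
mCA in each library (vertical axis, percent of CA cytosines called methylated) for knockout, V665L, Y735C and WT construct cultures; each point is a library, sorted by value within its group, and bars give the mean ± SD. All 11 Y735C points lie above the knockout points, V665L points fall on both sides of the highest knockout value of 0.626%, and 3 WT construct points lie apart near 0.6%.

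Mean mCA was 0.829% ± 0.373 (SD, n = 8) with V665L and 0.495% ± 0.0694 (SD, n = 10) in knockout, a difference of 0.334 percentage points (95% interval 0.0953 to 0.589, all 8 above the knockout mean). By exact permutation over libraries, two-sided, p was 0.00281, and 0.00506 after Benjamini-Hochberg adjustment over 18 culture comparisons. With Y735C the mean was 0.941% ± 0.297 (SD, n = 11), 0.446 points above knockout (95% interval 0.261 to 0.649), with a permutation p = 2.00e-05 and an adjusted p = 0.00024. These comparisons share the same 10 knockout libraries. Both altered constructs had a far larger SD than knockout, whereas the permutation test and its interval treat the groups as alike in spread. These p-values and intervals are therefore approximate. V665L values were spread more widely than those of knockout, with a coefficient of variation of 45.0% against 14.0%. Y735C at 31.6% was near the WT construct at 29.6% and the no virus cultures at 26.2%. With the values at CC sites subtracted, the coefficient was 67.6% for V665L and 38.3% for knockout. On that scale knockout was near Y735C at 44.5% and the WT construct at 41.2%. When libraries sharing a title code were averaged, without the p prefix of construct titles (p5, p7 and the like) but with that of knockout titles, V665L exceeded knockout by 0.223 points and no longer passed (exact permutation, adjusted p = 0.0637), while Y735C still passed (0.0035). With the prefix kept for all titles, V665L exceeded knockout by 0.319 points and passed (exact permutation, adjusted p = 0.0485), as did Y735C by 0.431 points (0.0030).

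Against the WT construct neither altered construct differed by more than the spread between libraries. V665L minus WT construct (mean 1.12% ± 0.330, SD, n = 13) was -0.286 points, with a 95% interval from -0.612 to 0.0422 points and an exact permutation p = 0.0822 (adjusted 0.114); 6 of 8 V665L libraries lay below the WT mean. Y735C minus WT construct was -0.174 points, with an interval from -0.441 to 0.0953 (permutation p = 0.188, adjusted 0.212), and 9 of 11 libraries were below the WT mean. Both intervals take in no difference and shortfalls larger than those measured, so these data do not show that the altered constructs act like the WT construct. Without V665L replicate 3, the highest of its group, the V665L difference was -0.375 points and passed (exact permutation, adjusted p = 0.0336). Medians in place of means gave -0.432 points for V665L and -0.319 for Y735C, neither past the threshold (permutation, adjusted p = 0.152 and 0.150). Set against each other, V665L minus Y735C was -0.112 points (95% interval -0.436 to 0.213), with an exact permutation p = 0.472, or 0.955 after adjustment over 5 columns. Leaving out single libraries gave differences from -0.2003 points (without V665L replicate 3) to -0.0499 (without Y735C replicate 1). Within title forms, where only 4 V665L and 3 Y735C libraries could be compared, the difference was -0.234. The sign turned, to 0.0681 points, without libraries whose titles have a Gabel21 prefix or an S022 number, and to 0.0763 points against Y735C titles with stem 8-16 alone.

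**Figure D2:**
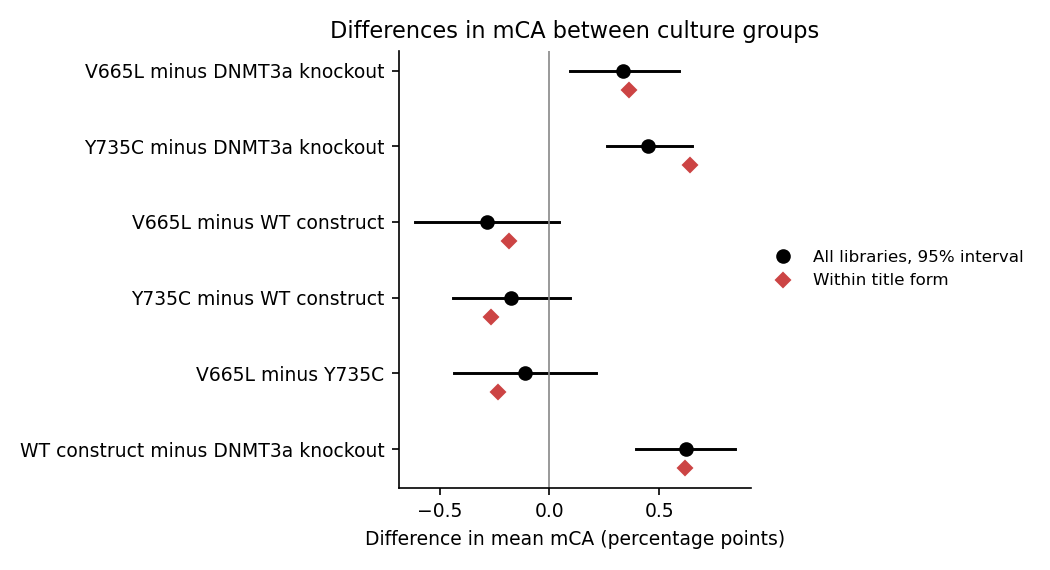
Differences in mean mCA between culture groups (horizontal axis, percentage points). Black points and lines give the difference over all libraries with its 95% interval from the permutation test. Red diamonds give the difference within title forms, from libraries of shared forms only. Intervals of V665L and Y735C against knockout lie above 0, and those against the WT construct and against each other cross 0.

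As a share of what the WT construct added over knockout, V665L returned 53.8% of mCA (standard error 22.7) and Y735C 71.9% (standard error 17.9). Leaving out single libraries moved these shares between 39.6% and 61.4% for V665L and between 61.9% and 76.3% for Y735C. From medians they were 31.8% and 49.7%, with libraries of a title code averaged 38.1% and 69.7%, and as the mean over title forms 65.1% and 79.8%. The mean over title forms took in all 8 V665L libraries but only 6 Y735C libraries, without the lowest of that group. The shares of 65.1% and 79.8% thus rest on unlike sets of forms. Without titles with a Gabel21 prefix or an S022 number, a choice made after the values had been seen, the order turned, with 66.1% for V665L and 57.1% for Y735C. The difference between the shares was not tested.

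The spread within constructs moved with the form of the library titles, which differ in prefixes and number styles that the labels do not explain. Titles with a Gabel21 prefix held V665L libraries at 0.553% and 0.499% (replicates 1 and 2), a WT construct library at 0.585% and a knockout library at 0.444%. Titles with an S022 number held a V665L library at 0.533% (replicate 5), WT construct libraries at 0.638% and 0.617%, and a knockout library at 0.429%. The 3 low WT construct libraries were thus in the same title forms as 3 of the 4 low V665L libraries, and no Y735C library was in either form. In these forms mCG was lower too, from 69.2% to 71.0% in V665L, from 69.0% to 70.5% in WT construct and from 67.5% to 69.9% in knockout libraries; over all other forms V665L libraries held 73.8% to 76.8% and WT construct libraries 73.0% to 76.8%, but knockout libraries 65.9% to 75.8% and Y735C libraries 68.9% to 77.5%. The part of the title form, or of mCG, in the mCA differences was not tested beyond comparisons made within forms. Titles with a Gabel_33 prefix stood at the other end: V665L replicate 3 held 1.45%, Y735C replicate 1 held 1.56% and the WT construct library 1.41%, while the knockout library of that form held 0.526%. In that form alone both altered constructs exceeded the WT construct.

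**Figure D3:**
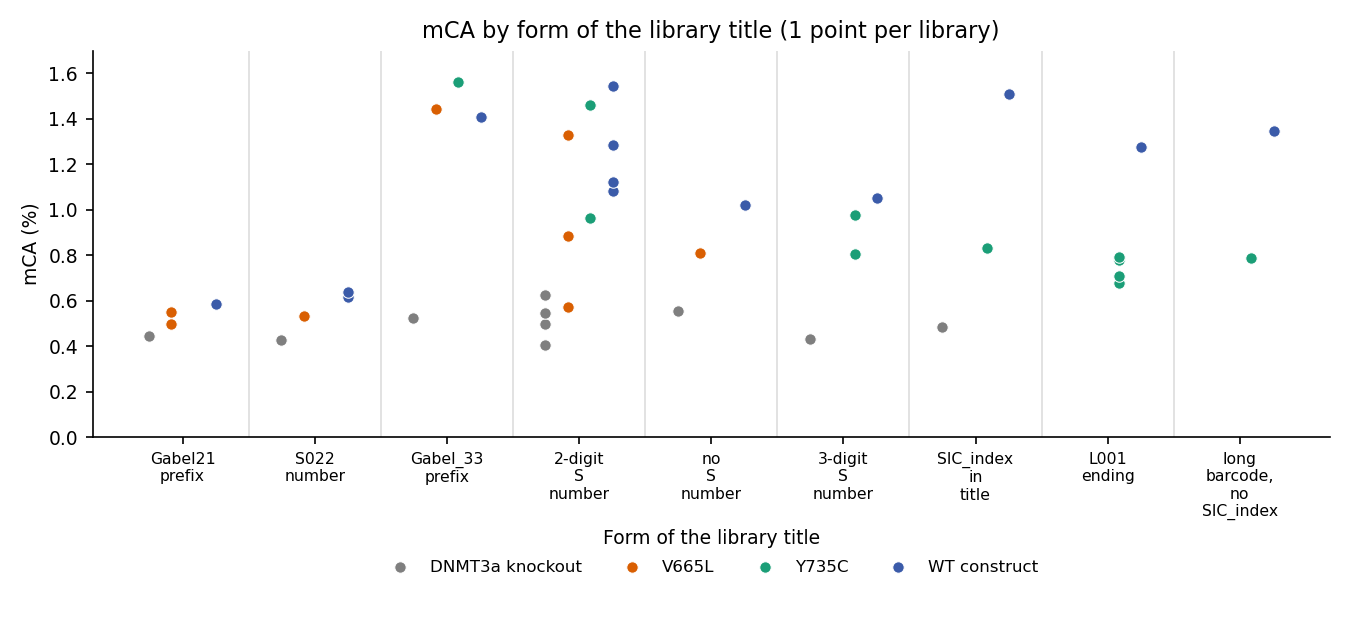
mCA of each library (vertical axis, percent) by the form of its title (horizontal axis), coloured by group. V665L and WT construct points lie close together and low in the Gabel21 and S022 forms and high in the Gabel_33 form, where Y735C also reached its highest value of 1.56%, while knockout stayed between 0.407% and 0.626% throughout.

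Compared only within title forms, V665L exceeded knockout in the mean of all 5 shared forms, by a weighted 0.360 points (exact permutation within form, p = 0.00238, adjusted 0.00857). Y735C exceeded it in all 4 shared forms, by 0.641 points (exact permutation p = 0.00556, the smallest that 180 arrangements allow, adjusted 0.0143). Only 6 Y735C libraries entered. Titles that end in L001 without a Gabel21 prefix, and those with a long barcode but no SIC_index, include no library grouped as knockout. A library titled NV but labelled DNMT3a knockout has the long barcode form and entered no group because of that conflict. The Y735C libraries left out, from 0.680% to 0.792%, were the lowest of the group, so 0.641 points is not comparable with the difference over all libraries. Against the WT construct V665L was lower in 4 of 5 forms, with a weighted difference of -0.187 points (exact permutation p = 0.0746, adjusted 0.103). Y735C was lower in 5 of 6 forms, with a difference of -0.266 points (exact permutation p = 0.0383, adjusted 0.0575). Without the Gabel21 and S022 forms, a choice made after the values had been seen, the WT construct mean rose to 1.27% ± 0.189 (SD, n = 10). Y735C, which lost no library, then differed by -0.325 points and passed (permutation, adjusted p = 0.0159). V665L rose to 1.01% ± 0.367 (SD, n = 5) and differed by -0.257 points (exact permutation, adjusted p = 0.107).

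The share of the WT gain that V665L returned, computed inside each form, was 57.9% for Gabel21 titles, 52.6% for S022 titles, 55.2% for titles with no S number and 55.3% for titles with a 2-digit S number. For the Gabel_33 form it was 104.4%. These are descriptions from 1 to 4 libraries per group and form. In Gabel21 titles the WT construct stood at 0.585% against 0.444% in knockout, and in S022 titles at 0.627% against 0.429%. The shares of these 2 forms are thus parts of a small gain, and the likeness of the values does not show a constant share. The 2-digit form held unlike libraries: V665L replicates 4, 7 and 8 stood at 1.33%, 0.884% and 0.572%. Replicate 8 has S number 42 and fell below the knockout library with S number 39 (0.626%), far from the WT construct library with S number 40 (1.28%). The labels do not say that near S numbers mark libraries handled together. S number 15 occurs in both a WT construct library (1.55%) and a knockout library (0.499%), so the form may mix more than 1 numbering. For Y735C the share inside forms varied more, being 33.8% for SIC_index titles, 74.0% for 3-digit S numbers, 93.6% for 2-digit S numbers and 117.7% for the Gabel_33 form. Titles that end in L001 without a Gabel21 prefix held 4 Y735C libraries between 0.680% and 0.792% and a WT construct library at 1.28%.

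Libraries whose titles share a code, read without its p prefix, did not always hold like values. With the prefix, all 8 V665L and all 11 Y735C codes differ, so whether a shared code marks repeats of a culture is not given by the labels. Without it the 8 V665L libraries carry 6 codes. Replicates 3 and 7 share a code and held 1.45% and 0.884%, and replicates 4 and 6 share another and held 1.33% and 0.812%, a 1.64-fold gap in each case. Each pair spans different title forms. The 11 Y735C libraries also carry 6 codes. Replicates 7 and 11 held 0.680% and 0.709%, and replicates 5 and 8 held 0.806% and 0.780%, so these pairs lay within 1.04-fold. By contrast, replicates 1, 9 and 10 share a code and held 1.56%, 0.792% and 0.964%, and replicates 2 and 4 held 1.46% and 0.831%. In the WT construct the widest gap within a code was 2.42-fold, from 0.638% in an S022 title to 1.55% in a title with a 2-digit S number. The SD within codes was 0.382 points in V665L, 0.325 in Y735C and 0.402 in WT construct libraries, no smaller than the SD over all libraries of each group (0.373, 0.297 and 0.330). Libraries of a shared code were thus spread as widely as the libraries of a group at large.

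**Figure D4:**
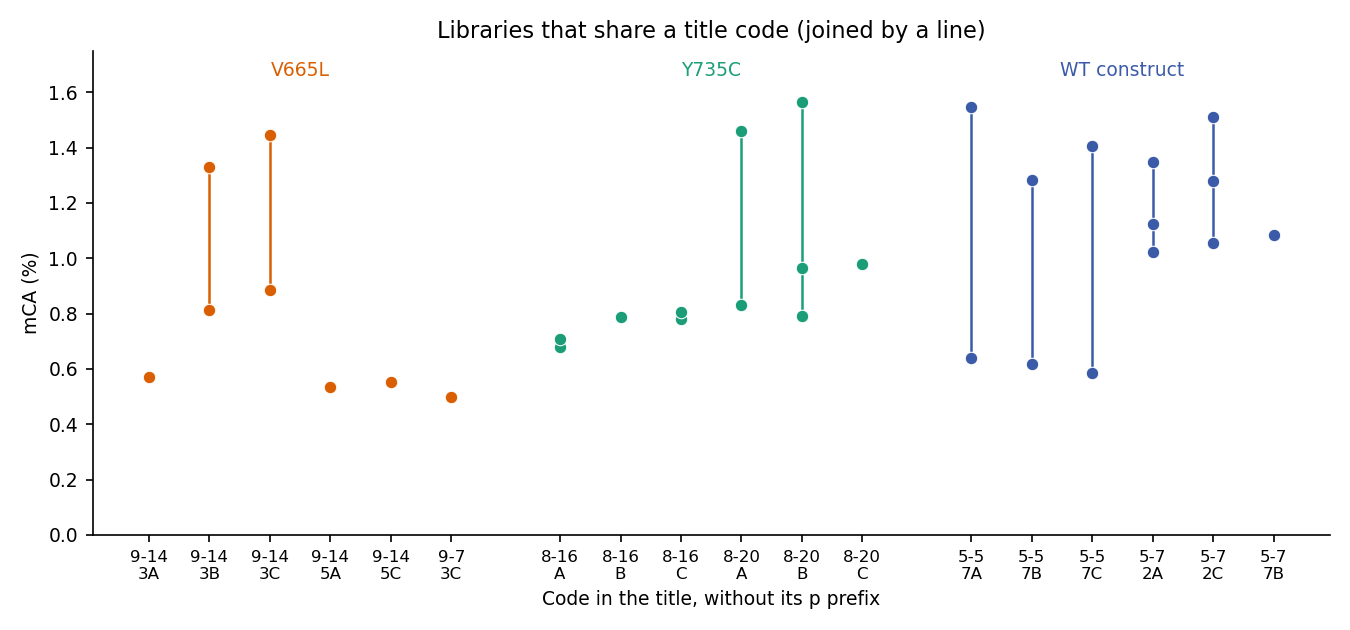
mCA (vertical axis, percent) of libraries grouped by the code in their titles, without its p prefix (horizontal axis), for V665L, Y735C and WT construct; lines join libraries of a code. Y735C libraries with codes starting 8-16 lie between 0.680% and 0.806%, whereas the other codes that hold more than 1 library span wider ranges, up to 2.42-fold in the WT construct.

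Y735C titles fall into stems 8-16 and 8-20, whose meaning the labels do not give. The 5 libraries of stem 8-16 held 0.753% ± 0.0549 (SD) and the 6 of stem 8-20 held 1.10% ± 0.330 (SD). The highest of stem 8-20, at 1.56% and 1.46%, had a Gabel_33 title and a 2-digit S number, forms with no library of stem 8-16. Stem and title form cannot be told apart for these libraries. The difference between stems of -0.346 points passed the exact two-sided permutation test (p = 0.0173, adjusted 0.0346 over 2 stem comparisons). It was no longer called without any 1 of replicates 3, 5, 7, 8 or 11 (exact permutation, adjusted p from 0.124 to 0.152). Within title form it was -0.11 points (exact permutation p = 0.25, added after the values had been seen). Too few libraries could be compared there for any result to pass. With codes averaged it was -0.318 points (exact permutation p = 0.1, adjusted 0.2). That p is the smallest that so few code means allow, so this test could not pass. With medians it was -0.191 and did not pass (exact permutation, adjusted p = 0.0649). Each stem lay above knockout by itself, 8-16 by 0.258 points (exact permutation, adjusted p = 0.000999) and 8-20 by 0.603 points (exact permutation, adjusted p = 0.000463). Against the WT construct the difference was -0.363 points for stem 8-16, which passed (exact permutation, adjusted p = 0.0402), and -0.0172 points for stem 8-20 (0.917). WT construct titles have stems too, 5-5 and 5-7, whose means of 1.013% and 1.203% differed by -0.190 points (exact permutation p = 0.309). Against stem 5-5 alone V665L differed by -0.184 points (exact permutation, adjusted p = 0.477) and against stem 5-7 alone by -0.374, which passed (0.0467). All V665L libraries but replicate 2 share stem 9-14, and replicate 2, of stem 9-7, was the lowest of its group.

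In group means, methylation at CT sites (mCT) moved with mCA. Yet mCT lay below lambda in 7 of 8 V665L, 10 of 11 Y735C, all 10 knockout and 7 of 13 WT construct libraries. Most mCT values thus did not stand above the conversion control. Lambda also exceeded the values at CC sites in every library of these groups, so it is not a strict floor for genomic cytosines. In every one of these libraries mCT lay above the value at CC sites. Mean mCT was 0.453% ± 0.102 (SD, n = 8) with V665L, 0.4702% ± 0.0820 (SD, n = 11) with Y735C, 0.369% ± 0.0424 (SD, n = 10) in knockout and 0.531% ± 0.0868 (SD, n = 13) with the WT construct. Y735C was 0.102 points above knockout (permutation p = 0.00068, adjusted 0.00213), with all 11 libraries above the knockout mean. V665L was 0.0842 points above knockout (exact permutation p = 0.0221, adjusted 0.0398), with 7 of 8 libraries above that mean. This V665L call was lost when any 1 of 11 libraries was left out (V665L replicates 3, 4 and 7 and knockout replicates 1 to 4 and 6 to 9, adjusted p from 0.0507 to 0.0789), when title codes were averaged (0.243) and with lambda subtracted (0.434). It held within title forms (exact permutation, adjusted p = 0.0214) and with mCC subtracted (0.00212). Against the WT construct the mCT difference was -0.0778 points with V665L (95% interval -0.165 to 0.0103, exact permutation, adjusted p = 0.117) and -0.0604 points with Y735C (95% interval -0.132 to 0.012, adjusted 0.123). Within title forms the Y735C difference was -0.077 points (exact permutation p = 0.0117) and passed (adjusted 0.0214), whereas with lambda subtracted it turned to 0.0123 points (permutation, adjusted p = 0.838).

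The gain over knockout at CT was 25.2% of the gain at CA with V665L (standard error 3.89), 22.8% with Y735C (2.99) and 26.1% with the WT construct (2.24). Every library of the 4 groups kept the order CA above CT above CC. CC methylation (mCC), the lowest of the contexts, was 0.305% ± 0.0251 (SD, n = 8) with V665L, 0.302% ± 0.0197 (SD, n = 11) with Y735C, 0.299% ± 0.0394 (SD, n = 10) in knockout and 0.320% ± 0.0288 (SD, n = 13) with the WT construct. Neither altered construct differed detectably from knockout (permutation, adjusted p = 0.82 and 0.851) or from the WT construct (0.462 and 0.269) at mCC. With mCC subtracted, mCA was 0.524% ± 0.354 (SD, n = 8) with V665L, 0.640% ± 0.285 (SD, n = 11) with Y735C, 0.196% ± 0.0751 (SD, n = 10) in knockout and 0.795% ± 0.327 (SD, n = 13) with the WT construct. On this scale V665L returned 54.8% of the WT gain (standard error 22.6) and Y735C 74.0% (18.2).

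CG methylation (mCG) was 73.1% ± 2.62 (SD, n = 8) with V665L and 73.2% ± 2.29 (SD, n = 11) with Y735C, against 71.9% ± 3.28 (SD, n = 10) in knockout and 73.7% ± 2.52 (SD, n = 13) with the WT construct. V665L differed from knockout by 1.21 points (95% interval -1.82 to 4.27) and Y735C by 1.26 points (95% interval -1.27 to 3.82), and neither passed (permutation, adjusted p = 0.813 each). Leaving out single libraries moved these between 0.543 and 1.78 for V665L (lowest without knockout replicate 6, highest without V665L replicate 5) and between 0.592 and 1.69 for Y735C (lowest without knockout replicate 6, highest without knockout replicate 2). Within title forms they were 0.997 and 2.16 points (exact permutation p = 0.0595 and 0.0778, adjusted 0.35 each). The 2.16 points came from 6 of the 11 Y735C libraries. Differences from the WT construct were -0.596 points for V665L and -0.547 for Y735C (permutation, adjusted p = 0.814 each). The libraries with the highest mCA also had the highest mCG of their groups: V665L replicate 3 at 76.8% and Y735C replicate 1 at 77.5%, both with Gabel_33 titles, where the knockout library held 75.8%.

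Lambda, the conversion control, was 0.559% ± 0.214 (SD, n = 8) with V665L, 0.516% ± 0.0671 (SD, n = 11) with Y735C, 0.553% ± 0.111 (SD, n = 10) in knockout and 0.588% ± 0.185 (SD, n = 13) with the WT construct. No difference passed (permutation, smallest adjusted p over the 18 comparisons 0.786). Lambda exceeded mCC in every library of the 4 groups. mCA exceeded lambda in all 8 V665L and all 11 Y735C libraries but in only 4 of 10 knockout libraries. In V665L replicate 2 the margin was 0.0079 points and in replicate 3 it was 0.38, where lambda reached 1.07%. The WT construct library of the same title form reached 1.03%. With lambda subtracted, V665L stayed above knockout by 0.328 points and Y735C by 0.484 points in mCA (permutation, adjusted p = 0.00074 and 0.00024).

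**Figure D5:**
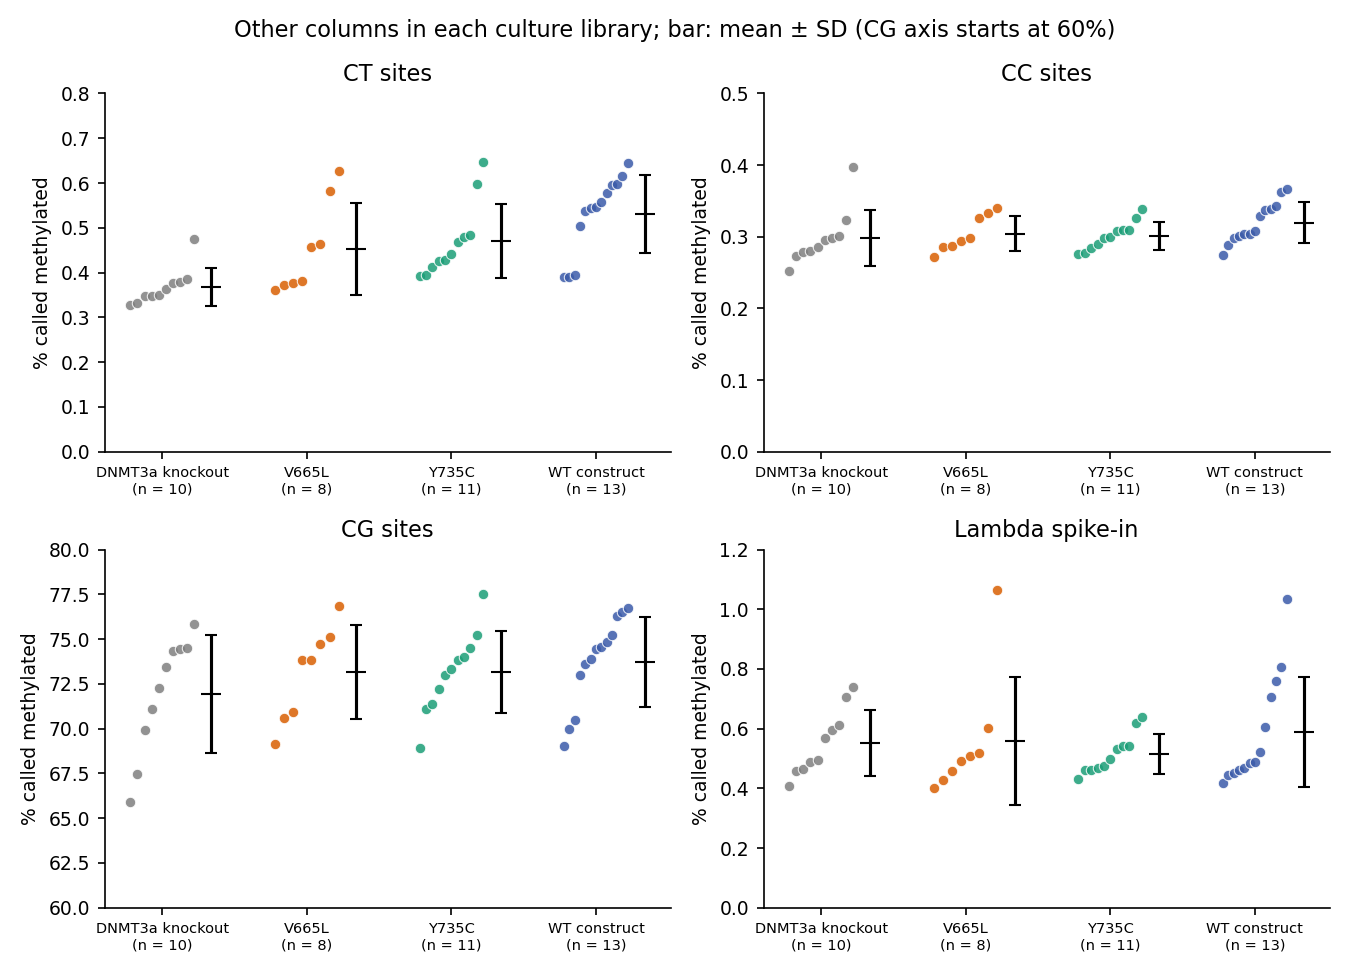
Percent of cytosines called methylated at CT, CC and CG sites and in the lambda spike-in (vertical axes; the CG axis starts at 60%) for each library of the 4 groups, with mean ± SD. CT rises from knockout to the constructs as CA does, CC stays near 0.3%, CG overlaps among groups, and V665L has 1 lambda point at 1.07% above its other 7 libraries.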

How the data were processed

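Whole-genome bisulfite libraries of cultured neurons were taken from a table of fractions deposited by the authors, which gives for each library the fraction of cytosines called methylated at CA, CT, CC and CG sites and in lambda. BS-Seeker2, bedtools and the mm9 genome are named per the submitters' processing notes, with versions not given in the sources used here. The labels give a range of genome coverage, but the table holds no cytosine counts, so no coverage minimum or counting interval was applied. Fractions were turned into percentages. Groups came from the genotype labels and title forms, codes and stems from the titles. No 2 libraries held equal values.

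Means were compared by two-sided permutation tests over libraries, exact where a group held under 10 values and with 100000 resamples (seed 1) otherwise, in Python 3.11.15 with numpy 2.4.6 and pandas 2.3.3. Intervals (95%) invert the same test. Adjusted p-values (threshold 0.05) cover 18 culture comparisons per column: 8 altered constructs against knockout and WT construct, WT construct against knockout, and knockout against cultures without virus. The test of V665L against Y735C was adjusted over 5 columns. Within title forms, values were permuted inside each form. The permutation test and its interval were tried on simulated normal values with equal spread in both groups. V665L and knockout had unequal spreads, as did Y735C and knockout, which that trial does not cover. Y735C against knockout was not among the pairs tried. Constructs and tests were chosen with earlier results of these data known. Alternatives averaged libraries of a title code (with and without its p prefix), used medians or a logit scale, subtracted mCC or lambda, kept single title stems, permuted within title forms and left out each library.

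A second deposited table, on cortex tissue, was not used here.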

Additional observations from a re-analysis of the deposited data

Results flagged for a closer look

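Groups of 4 to 10 libraries were screened: V665L, knockout, Y735C stems 8-16 and 8-20, and WT construct stems 5-5 and 5-7. Y735C and WT construct as whole groups were larger and were not screened. In 30 group and column combinations, 3 values lay farther from their neighbours than Dixon's 95% limit allows, where chance flags about 1 in 20. Lambda of V665L replicate 3 was 1.07%, with the next V665L library at 0.601%. Knockout replicate 10 held the highest mCT of its group, 0.475%, with the next at 0.386%, and the highest mCC, 0.397%, with the next at 0.324%. V665L replicate 3 also had the highest mCA of its group. Without it, lambda of V665L minus knockout went from 0.00571 to -0.0666 points, and mCA of V665L minus WT construct passed, as given with that comparison. Without knockout replicate 10, V665L minus knockout went from 0.0842 to 0.0960 points in mCT (exact permutation, adjusted p = 0.00494) and from 0.00598 to 0.0169 points in mCC (0.235), which did not pass.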

How the results depend on the processing

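Among 150 alternatives that left out no single library, 14 turned the direction, 6 lost a call, 5 gained one and the others were counted as unchanged. Shares of the WT gain have no p-value and counted as unchanged if they moved by less than the SD over the construct's libraries. Some alternatives could not differ from the main result. A setting that kept lambda values of 0 met none, and averaging by prefixed code merged no V665L or Y735C libraries. The lost calls include the Y735C stem difference with codes averaged and within title forms, where too few values were compared for any call. Differences are in percentage points, and the cause of each change was not tested. With libraries of a title code averaged, V665L minus knockout was 0.223 in mCA and 0.0487 in mCT, both no longer called, -0.00664 in mCC and -0.0317 in lambda; Y735C minus knockout was -0.0037 in mCC, V665L minus Y735C -0.00294 in mCC, and the Y735C stem difference in mCA -0.318, no longer called. With medians, the stem difference was -0.191, no longer called, V665L minus Y735C was -0.00287 in mCC and 0.524 in mCG, and lambda was -0.0313 for V665L minus knockout, 0.0132 for V665L minus WT construct and 0.0124 for Y735C minus WT construct. With lambda subtracted, mCT of V665L minus knockout was 0.0784, no longer called, and that of Y735C minus WT construct 0.0123. Within title forms, Y735C minus WT construct was -0.077 in mCT, now called, V665L minus Y735C -0.00543 in mCC, and the stem difference -0.11. Against WT construct titles of stem 5-7 alone, V665L differed by -0.374 in mCA, now called, and of stem 5-5 alone by -0.184. With Y735C titles of stem 8-16 alone, Y735C minus WT construct was -0.363 in mCA, now called, and V665L minus Y735C 0.0763. Without Gabel21 and S022 titles, chosen after seeing the data, Y735C minus WT construct was -0.325 in mCA and -0.102 in mCT, both now called, and V665L minus Y735C 0.0681 and 0.028. Leaving out single libraries gave, for V665L minus knockout, 0.0593 to 0.0972 in mCT and -0.0666 to 0.0284 in lambda; for V665L minus WT construct, -1.13 to -0.0279 in mCG, -0.375 to -0.239 in mCA, -0.103 to -0.0647 in mCT and -0.101 to 0.00792 in lambda; for V665L minus Y735C, -0.0423 to 0.000302 in mCT, -0.00196 to 0.00772 in mCC, -0.579 to 0.519 in mCG and -0.0288 to 0.0663 in lambda; for Y735C minus knockout, -0.00225 to 0.0138 in mCC; for Y735C minus WT construct, -0.98 to -0.122 in mCG and -0.0781 to -0.0508 in mCT, passing without Y735C replicate 1 (adjusted p = 0.0398); and for the stem difference, -0.407 to -0.253. In mCT, V665L minus WT construct passed without V665L replicate 3 (adjusted p = 0.0367). No paired analysis was possible because replicate numbers were given in accession order and tie no libraries together across groups. Shallow coverage with no cytosine counts leaves the precision of single libraries unknown.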

Other observations

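The 2 libraries of 12.5 days whose title and genotype label disagree entered no comparison. The library titled with Cre and labelled as a no virus control held 0.947% mCA, 0.472% mCT and 70.02% mCG. The library titled NV and labelled DNMT3a knockout held 0.476% mCA, 0.394% mCT and 70.05% mCG. With the latter counted as knockout, as its genotype label says, V665L exceeded knockout by 0.336 points and Y735C by 0.448 points in mCA (permutation, adjusted p = 0.00341 and 0.00012).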
